A study of Elaeis guineensis with 18 samples.

Results

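Described here are 250 of the 30606 genes counted in oil palm leaves. Each was higher in all 15 stressed leaf libraries than in all 3 unstressed ones. A gene was taken when its mean normalized count in the control libraries was at least 10 and its lowest value over the 15 stress libraries was at least 1.5 times its highest control value. A normalized count is the number of reads assigned to a gene divided by the size factor of its library. Of the 22005 genes that reached the control minimum, 298 (1.35%) met this ratio, and the 250 with the largest ratios were kept. Stress against control therefore chose the members, so values and calls against control only describe the members and support nothing. The tests that bear on them compare 1 stress with another. The rule treats the stresses alike, but it sets a floor under each of them, so counts of these calls also depend on the choice of members. In the opposite direction, 234 genes (1.06%) had their lowest control library at least 1.5 times above the highest stress library.

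The plants were Deli Dura oil palm seedlings (Elaeis guineensis), 6 months old when they were potted, which then grew for 1 month at 28 °C before treatment. Leaves were taken after 2 weeks of heat at 40 °C or cold at 10 °C, both with 200 mL of water, of drought with 0 mL of water, salinity with 200 mL of 0.2 M NaCl or waterlogging with water kept 1 inch above the soil, these 3 at 28 °C, and from control seedlings at 28 °C with 200 mL of water. Each of the 6 groups had 3 libraries. The third leaf of 3 seedlings was harvested for each replicate, and how these leaves were combined is not stated. Only leaf was sampled, at 1 time point, from a single planting material, so each group stands for 1 treatment strength in that material. The labels name waterlogging as flood.

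The libraries held between 14839345 and 22126971 assigned reads. Spearman correlations of counts were 0.969 to 0.989 between replicates and 0.938 to 0.986 between libraries of different groups. Reads of 21 light-harvesting antenna genes, a defining product of green leaf, made up 4.88 to 5.82% of assigned reads in heat, 1.85 to 2.32% in cold, 4.08 to 6.37% in drought, 6.88 to 9.70% in salinity, 8.33 to 11.3% in waterlogging and 3.05 to 5.90% in control libraries. Antenna transcripts were therefore present in every library and their share differed between the groups. Markers of other leaf cell types are not annotated in the files. In whole leaves a smaller number of cells of a type and less RNA per cell cannot be told apart.

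Plants meet a range of stresses with a partly shared set of responses. Chaperones refold damaged proteins, protein kinases and phosphatases relay calcium and abscisic acid signals, transcription factors of the NAC, WRKY, ERF and bZIP families reset gene activity, and enzymes make protective solutes and pigments. Of the 250 members, 248 carry a gene number of the oil palm annotation and 2 are gene models added by the study. The RefSeq table of assembly EG11 matched 235 members by symbol, of which 228 are listed as protein coding, 4 as long noncoding RNA, 2 as other RNA and 1 as a pseudogene. A product name or a Gene Ontology term was found for 62 members in the study's text and tables. Those term lists hold genes that the study called on these same samples and are cut short in the tables, so a count within a list is not independent evidence, and the 188 members without a term may belong to any of them. In the EG11 gene order, 3 pairs of members were direct neighbours among protein-coding genes, namely LOC105042708 with LOC105042707, LOC105041398 with LOC105041412, and LOC105049770 with LOC105049771.

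Most members stood moderately above control. The ratio of the lowest stress library to the highest control library ran from 1.58 to 41.4 with a median of 1.83, and it was at least 2 for 95 members, at least 3 for 22, at least 4 for 13 and at least 10 for 3. At the limit, LOC105036933 was the last member with a ratio of 1.578 (481.7 in its lowest stress library and 305.2 in its highest control library), and LOC105047559 was the first gene left out with 1.577 (25.6 and 16.2). The median member had a control mean of 150.5 normalized counts, against 258.8 over all genes past the minimum, and control means ran from 10.3 to 7651. Together the members took 5.33 to 5.72% of assigned reads in heat, 2.88 to 3.27% in cold, 3.18 to 3.52% in drought, 2.25 to 2.71% in salinity and 2.13 to 2.21% in waterlogging libraries, against 0.596 to 0.657% in control libraries. Such a sum is weighted toward the most abundant members and does not give the change of a typical member, for which medians follow below. The control library that set the limit was most often the third (122 members), and the lowest stress library was most often a cold library (84 members) or a heat library (67 members).

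The fitted log2 fold changes against control had medians of 1.95 under heat, 1.83 under cold, 2.08 under drought, 2.11 under salinity and 2.08 under waterlogging, while the medians over all 23830 genes tested were 0.00, 0.02, −0.05, −0.04 and −0.05. The usual thresholds of the study, an adjusted p under 0.05 and at least a 2-fold change, were met upward by 242 members under heat (11.5% of all genes), 235 under cold (13.1%), 235 under drought (10.7%), 234 under salinity (10.5%) and 242 under waterlogging (12.1%). These thresholds were passed upward under all 5 stresses by 214 members (2.07% of all genes), and by 280 genes that are not members. The rule used these contrasts, so nothing is read from the shares.

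The member with the largest ratio carries the term for the oxygen-evolving complex of photosystem II, the part of the thylakoid machinery that splits water. LOC105049085 had 1966, 2309.6 and 844 normalized counts in heat leaves, 957, 1149 and 1447 in cold, 2425, 2422 and 3222 in drought, 4617, 4458 and 3719 in salinity and 8849.7, 6867 and 4229.9 in waterlogging leaves, against 11.4, 2.93 and 20.4 in control leaves. Every stress library was at least 41.4 times the highest control library, and the ratios of the stress mean to the control mean were 147 under heat, 102 under cold, 232 under drought, 368 under salinity and 574 under waterlogging. Control values were low and uneven, so the size of the fold is less certain than its presence in all 15 libraries. Waterlogging gave the highest mean and cold the lowest, and both heat and cold were below waterlogging, with log2 differences of −1.95 (SE 0.37, adjusted p = 0.000687) for heat and −2.49 (SE 0.38, adjusted p = 5.16e-05) for cold. The next members by ratio, LOC105040206 (15.9) and LOC105035002 (12.3), have no term in the study's tables.

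**Figure D1:**
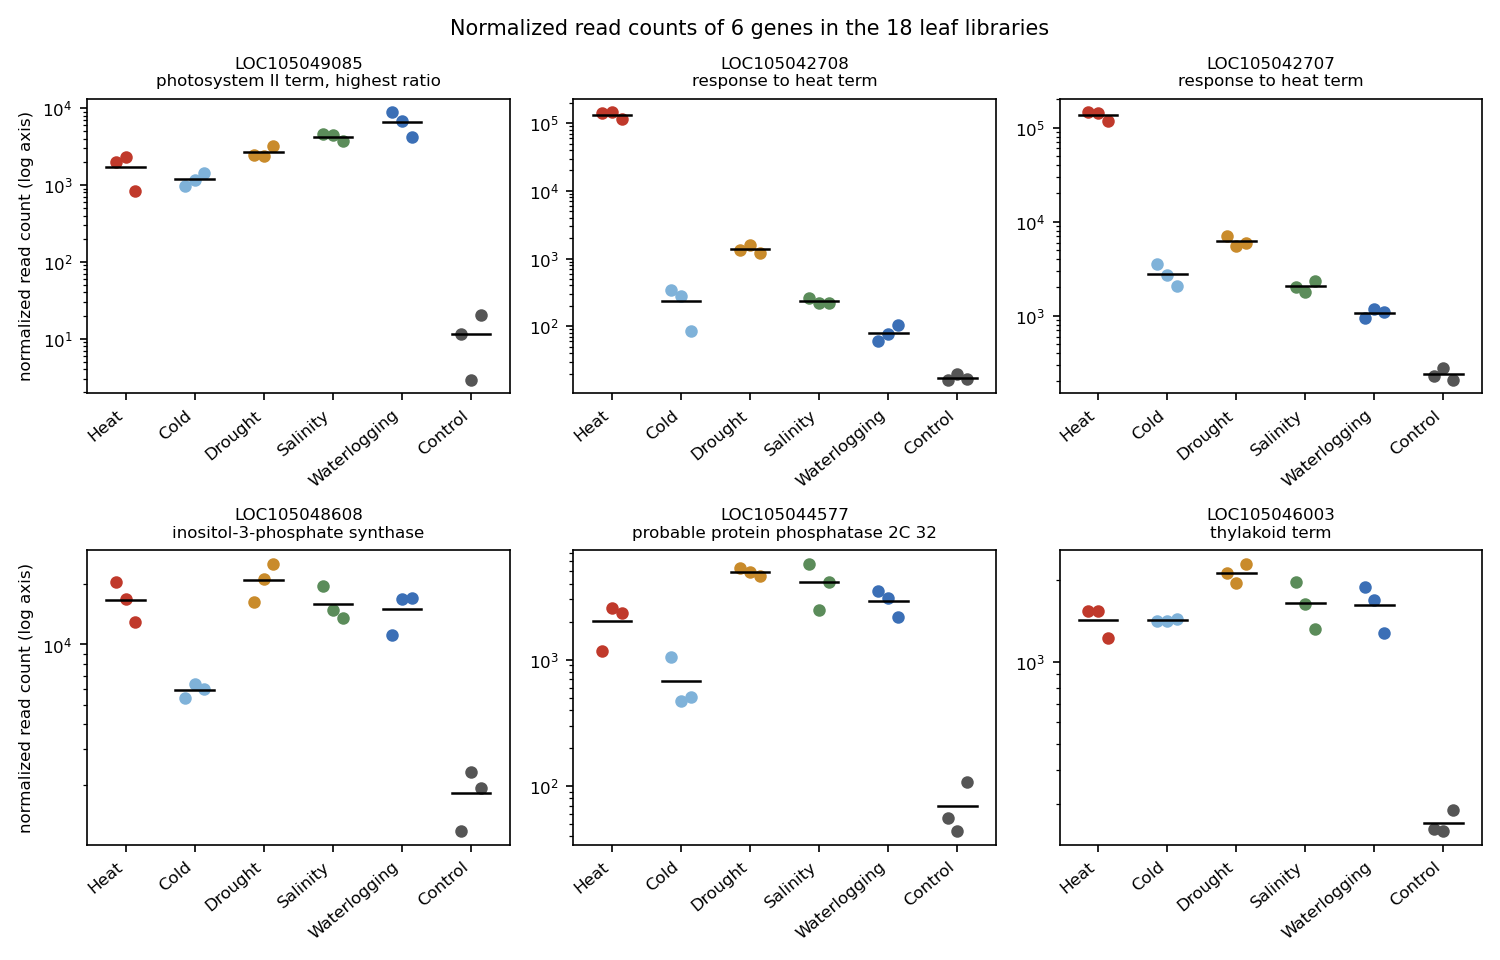
Normalized read counts (log axis) of 6 members in the 18 leaf libraries; each point is 1 library and each bar the mean of the 3 libraries of a group, with the 5 stresses left of control. In each panel all stress libraries lie above all control libraries, as the rule requires, while the order of the stresses differs from gene to gene, with LOC105042708 and LOC105042707 far highest in heat and LOC105048608 and LOC105044577 lowest in cold.

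Members annotated to the heat response or to protein folding were highest in heat in 5 of 5 cases (21.0% of all genes past the control minimum). Each was also above control in every drought, salinity, waterlogging and cold library, as the rule requires. Chaperones bind unfolded proteins and keep them from clumping. LOC105042708 had 142079.5, 144872 and 114104 normalized counts in heat leaves, 347, 278 and 83.9 in cold, 1359, 1558 and 1224 in drought, 262, 218 and 219 in salinity and 60.1, 76.8 and 104 in waterlogging leaves, against 16.2, 19.5 and 16.5 in control leaves. Heat libraries exceeded the highest library of any other stress by far, and waterlogging stayed nearest to control. Its neighbour showed the same order of groups at a higher basal level. LOC105042707 had 145534, 144624 and 118948 normalized counts in heat leaves, 3571, 2689.8 and 2064 in cold, 7023, 5502 and 5964 in drought, 2043, 1803 and 2344 in salinity and 954, 1182 and 1100.1 in waterlogging leaves, against 231, 279 and 209 in control leaves. Both genes are annotated to the response to heat, and whether their sequences are alike enough for reads to be split between them could not be checked here. For LOC105042708 the ratios of the stress mean to the control mean were 7683 under heat, 13.6 under cold, 79.3 under drought, 13.4 under salinity and 4.62 under waterlogging. Heat was above cold by a log2 difference of 9.15 (SE 0.47, adjusted p = 1.44e-09), above drought by 6.60 (SE 0.42, adjusted p = 5.11e-08), above salinity by 9.18 (SE 0.48, adjusted p = 2.66e-09) and above waterlogging by 10.71 (SE 0.51, adjusted p = 1.05e-09). Drought was in turn above salinity, by 2.58 (SE 0.36, adjusted p = 0.000613). For LOC105042707 heat was above cold by 5.63 (SE 0.24, adjusted p = 1.94e-10) and above drought by 4.47 (SE 0.22, adjusted p = 4.13e-09).

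The other 3 members of this set changed far less. LOC105060161, annotated to chaperone binding, had 4436, 4176 and 3560.5 normalized counts in heat leaves and 1623, 1562 and 1468 in cold leaves, against 572, 636 and 599.6 in control leaves. Its heat libraries did not overlap those of any other group, and heat was above cold by a log2 difference of 1.40 (SE 0.13, adjusted p = 4.95e-07). This difference fell short of 2-fold with plain library totals (0.96). LOC105051365, annotated as an ATP-dependent folding chaperone, was the member with the highest control mean, with 31507 ± 1565 in heat, 16655 ± 1290.3 in cold, 20631 ± 879 in drought, 17353 ± 975 in salinity and 15961 ± 633 in waterlogging leaves, against 7651 ± 555 in control leaves (normalized counts, mean ± SD, n = 3 each). Its difference between heat and cold, 0.93 (SE 0.11, adjusted p = 6.31e-06), was larger than the spread between replicates but below 2-fold. LOC105045463, also a folding chaperone, had 975, 859.7 and 841 in heat and 612, 697 and 664 in cold leaves, against 177, 206 and 205 in control leaves, with a log2 difference of heat over cold of 0.45 (SE 0.09, adjusted p = 0.000751). Counted over the 5 members, heat was called above drought, above salinity and above waterlogging in 4 each and above cold in 3, where heat was above drought in 8.18%, above salinity in 6.57%, above waterlogging in 7.90% and above cold in 12.3% of all genes. Of 82 other genes of the folding and heat response list, 68 rose and 4 fell under heat against control, 19 rose and 4 fell under cold, 27 rose and 3 fell under drought, 29 rose and 1 fell under salinity, and 24 rose and 1 fell under waterlogging. Over all genes 11.5% rose under heat, 13.1% under cold, 10.7% under drought, 10.5% under salinity and 12.1% under waterlogging. The list holds genes that the study called on these same samples, so nothing is read from these counts.

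**Figure D2:**
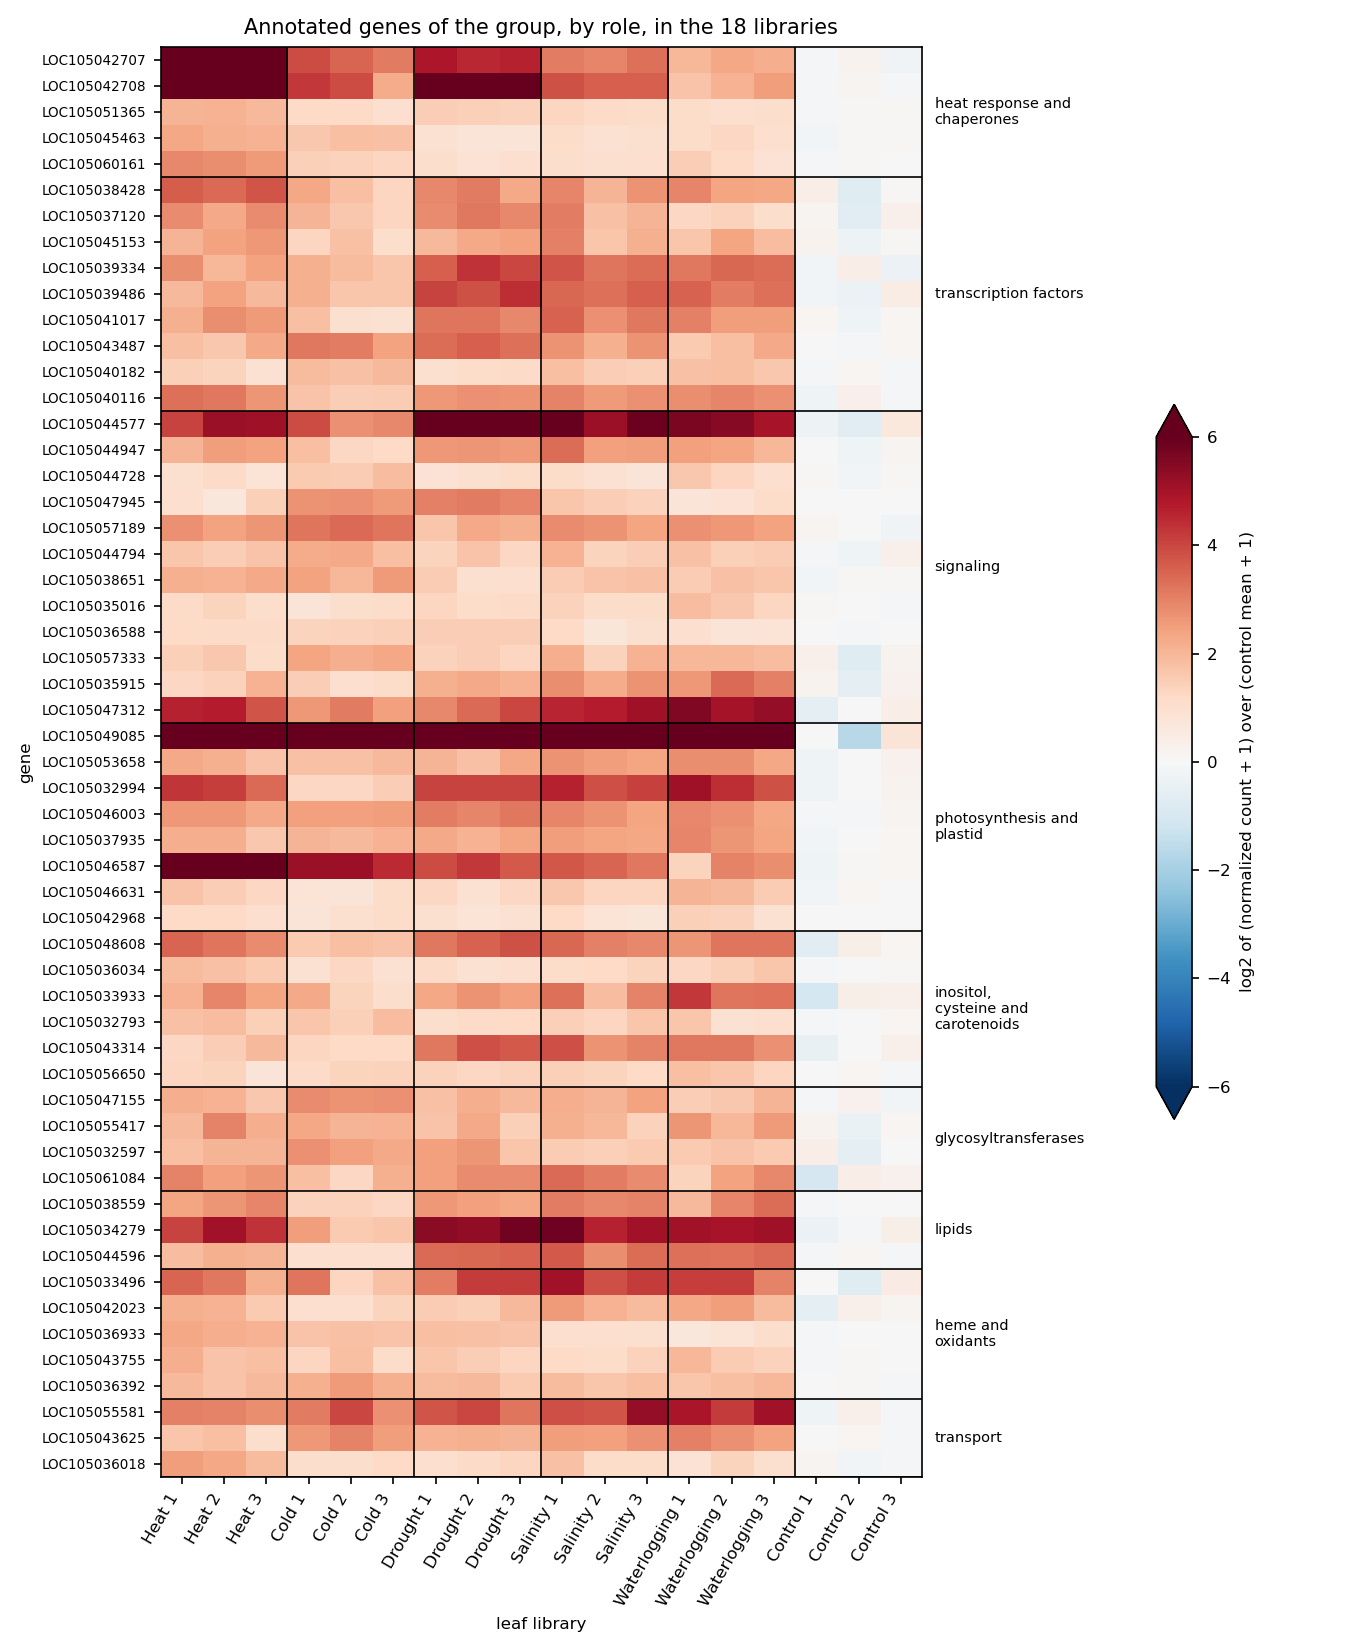
Log2 of each library's normalized count plus 1 over the control mean plus 1, for the 55 annotated members grouped by role (rows) in the 18 libraries (columns, stresses left of control); red is above and blue below the control mean, and colours saturate at 6. Among the darkest cells are those of LOC105049085 in all 15 stress libraries, of LOC105042708, LOC105042707 and LOC105046587 in the heat libraries and of LOC105042708 and LOC105044577 in the drought libraries, and the cold columns are pale for LOC105032994, LOC105034279 and LOC105044596.

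Of 8 members annotated to photosynthesis, the thylakoid or the plastid, 6 had their highest mean in waterlogging and 5 their lowest in cold, where over all genes past the control minimum waterlogging was highest for 18.4% and cold lowest for 31.9%. Plain library totals left 4 highest in waterlogging and 2 lowest in cold. LOC105032994, annotated to chlorophyll binding and light harvesting, set cold most sharply apart. LOC105032994 had 3732, 3432 and 2019 normalized counts in heat leaves, 456, 450.1 and 538 in cold, 3199, 3158 and 3187 in drought, 4689.7, 2745 and 3330.0 in salinity and 6464, 4117 and 2719 in waterlogging leaves, against 161, 192 and 217 in control leaves. Cold libraries lay between the control libraries and those of the other 4 stresses and overlapped neither, and cold was below waterlogging by a log2 difference of −3.20 (SE 0.30, adjusted p = 6.06e-07). This gene belongs to the antenna list whose summed share was lowest in cold and highest in waterlogging, and the part of that shift in its values was not tested. LOC105053658, which shares the oxygen-evolving complex term with LOC105049085, varied much less, with means of 1137 ± 229.9 in heat, 955 ± 73.9 in cold, 1117 ± 217 in drought, 1555 ± 164 in salinity and 1698 ± 301 in waterlogging leaves, against 270.5 ± 50.8 in control leaves (normalized counts, mean ± SD, n = 3 each), and it was called in no pair of stresses. LOC105037935, a plastid gene, had the highest control level of the annotated members per length, 242 ± 18.3 FPKM (mean ± SD, n = 3), and by normalized counts its ratios of stress to control mean were 4.0 under heat, 4.07 under cold, 4.76 under drought, 5.35 under salinity and 6.36 under waterlogging. LOC105046587, also annotated to the plastid, followed another order. LOC105046587 had 21628, 15111 and 15468 normalized counts in heat leaves, 5956, 5874 and 3751 in cold, 2544, 3187 and 2098 in drought, 2215, 1889 and 1507 in salinity and 415, 1294 and 1162 in waterlogging leaves, against 140.1, 176 and 179 in control leaves. Its heat libraries were the highest and its cold libraries the next, with no overlap between them.

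LOC105046003, annotated to the thylakoid, was among the more even of the strongly raised members. LOC105046003 had 1539, 1536 and 1223 normalized counts in heat leaves, 1412, 1414 and 1444 in cold, 2129.5, 1947 and 2298 in drought, 1975, 1637 and 1325 in salinity and 1885, 1687 and 1273 in waterlogging leaves, against 243, 238 and 284 in control leaves. The 15 stress libraries spanned less than a 2-fold range and sat at least 4.30 times above the highest control library. Cold differed from drought by a log2 value of −0.59 (SE 0.15, adjusted p = 0.00384), which is below 2-fold. Among the 63 other genes of the photosynthesis lists, 11 rose and 0 fell under heat, 3 rose and 34 fell under cold, 12 rose and 1 fell under drought, 39 rose and 0 fell under salinity, and 50 rose and 0 fell under waterlogging, all against control. Over all genes 11.5% rose under heat, 13.1% under cold, 10.7% under drought, 10.5% under salinity and 12.1% under waterlogging. These lists too hold genes that the study called on these samples, so nothing is read from the counts.

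Among 9 members annotated to transcription or ethylene signaling, 6 had their lowest mean in cold (31.9% of all genes past the control minimum), and 3 had it there by plain library totals. LOC105041017, annotated to sequence-specific DNA binding, had 4207, 2363 and 2274 normalized counts in cold leaves, 11117, 11052 and 8987 in drought leaves and 13979, 7999 and 10889 in salinity leaves, against 1284, 994 and 1321 in control leaves. Cold libraries were between control and drought without overlap, and cold was below drought by a log2 difference of −1.83 (SE 0.27, adjusted p = 3.81e-05). LOC105039486 and LOC105039334, both annotated as DNA-binding transcription factors, were highest in drought and lower in the temperature treatments. LOC105039486 had 1071, 1476 and 1062 normalized counts in heat leaves, 1214, 879.6 and 863 in cold, 4616, 3897 and 5869.6 in drought, 3024, 2715 and 3339 in salinity and 3248, 2341 and 2685 in waterlogging leaves, against 241, 213 and 371 in control leaves. No heat or cold library reached the lowest drought, salinity or waterlogging library. Heat was below drought by −1.99 (SE 0.22, adjusted p = 8.43e-06) and cold below drought by −2.29 (SE 0.23, adjusted p = 8.23e-07). For LOC105039334 the libraries held 133, 114 and 97.0 in cold and 368, 627 and 495 in drought leaves, against 26.7, 40.0 and 23.3 in control leaves, and cold was below drought by −2.12 (SE 0.24, adjusted p = 3.11e-06).

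LOC105040116, a DNA-binding factor by its term, was lowest in cold among the stresses, with 746, 672 and 477 in heat and 244, 205 and 213 in cold leaves, against 61.0, 92.6 and 68.9 in control leaves, and heat was above cold by 1.53 (SE 0.16, adjusted p = 2.16e-06). Its cold libraries overlapped neither heat nor control. LOC105040182, under the same term, went the other way, with 975, 923 and 694 in heat and 1363, 1256 and 1396 in cold leaves, against 351, 395 and 349 in control leaves, and was called in no pair. LOC105043487, annotated to sequence-specific DNA binding, had 3549.7, 3086 and 4917 in heat, 9226, 8559 and 5446 in cold, 10488, 12331 and 10228 in drought and 3058, 3518 and 4909.9 in waterlogging leaves, against 1039, 927 and 1087 in control leaves. Drought libraries were the highest of all groups. The gene was lower in heat than in drought by −1.51 (SE 0.24, adjusted p = 0.000137) and higher in drought than in waterlogging by 1.54 (SE 0.24, adjusted p = 0.000408). Of the members annotated to the regulation of transcription, LOC105038428 was higher in heat than in cold by 1.74 (SE 0.33, adjusted p = 0.000431) and LOC105037120 was higher in drought than in waterlogging by 1.76 (SE 0.32, adjusted p = 0.0015). LOC105045153, annotated to ethylene-activated signaling, had means of 931 ± 184 in heat, 472 ± 123 in cold, 846 ± 148 in drought, 937 ± 455 in salinity and 713 ± 181 in waterlogging leaves, against 179 ± 30.8 in control leaves (normalized counts, mean ± SD, n = 3 each).

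The 12 signaling members did not share a preferred stress, with the highest mean in cold for 5, in drought for 3, in waterlogging for 3 and in salinity for 1. Over all genes past the control minimum the shares were 31.4% in cold, 18.6% in drought, 18.4% in waterlogging and 10.6% in salinity. By plain library totals 8 of the signaling members were highest in cold, as were 115 of all 250 members. Protein phosphatases 2C remove phosphate groups from proteins, and some of them are core components of abscisic acid signaling. LOC105044577 had 1183, 2563 and 2362 normalized counts in heat leaves, 1055, 474 and 510.2 in cold, 5309.8, 4944 and 4611 in drought, 5749, 2494 and 4144 in salinity and 3505, 3067 and 2191 in waterlogging leaves, against 56.2, 43.9 and 108 in control leaves. This gene, a probable protein phosphatase 2C 32, descended from drought through salinity, waterlogging and heat to cold in its means, and its cold libraries were the lowest of any stress. Cold was below drought by −2.88 (SE 0.41, adjusted p = 2.6e-05), and heat below drought by −1.28 (SE 0.38, adjusted p = 0.0146), a call that was lost without the first heat library (log2 difference −0.99). LOC105044947, a probable protein phosphatase 2C 2, had 855, 588 and 566 in cold and 2520.5, 1330.1 and 1416 in salinity leaves, against 252, 208 and 275 in control leaves, and cold was below salinity by −1.38 (SE 0.23, adjusted p = 0.000125). With plain library totals this difference fell below 2-fold (−0.74). LOC105047945, annotated as a phosphatase, was raised most in drought and cold. LOC105047945 had 942, 766 and 1297 normalized counts in heat leaves, 3023, 3135 and 2778 in cold, 3875, 4151 and 3670.0 in drought, 1495, 1332 and 1222 in salinity and 816, 866 and 1015 in waterlogging leaves, against 474, 473 and 473 in control leaves. Drought and cold libraries did not overlap the other stresses, and drought was above waterlogging by 2.13 (SE 0.16, adjusted p = 1.55e-06). Its control libraries were nearly equal.

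The 3 members that take part in calcium relays had their highest means in cold. Cold was highest for 31.4% of all genes past the control minimum, so no preference is read from 3 genes. CBL-interacting protein kinases act downstream of calcineurin B-like calcium sensors. LOC105057189, a CBL-interacting protein kinase 18-like gene, had 975, 1131 and 982 normalized counts in cold leaves and 336, 508 and 469 in drought leaves, against 117, 109 and 91.2 in control leaves, and cold was above drought by 1.22 (SE 0.16, adjusted p = 1.01e-05). LOC105044794, a CBL-interacting kinase 14-like gene, differed by 0.64 (SE 0.20, adjusted p = 0.0123) and LOC105057333, a calmodulin-like protein 5 gene, by 0.88 (SE 0.23, adjusted p = 0.00444) between cold and drought, both short of 2-fold. With plain library totals both passed 2-fold (1.21 and 1.45). LOC105035915, a cation/calcium exchanger 1-like gene, was instead highest in waterlogging, with 72.8, 52.6 and 55.7 in cold and 161, 279.8 and 214 in waterlogging leaves, against 29.6, 16.6 and 30.1 in control leaves. The kinase LOC105038651 (OXI1-like; OXI1 of Arabidopsis is a kinase activated by oxidants) had 197, 146 and 219 in cold and 108, 71.2 and 75.3 in drought leaves, against 32.4, 38.0 and 38.8 in control leaves. LOC105047312, an inorganic pyrophosphatase 2-like gene whose product splits pyrophosphate, had 557, 799 and 512 in cold, 688, 977 and 1496 in drought and 4273, 2895 and 3554 in waterlogging leaves, against 62.9, 90.7 and 120.3 in control leaves. It was below waterlogging in cold by −2.52 (SE 0.32, adjusted p = 8.95e-06) and in drought by −1.75 (SE 0.31, adjusted p = 0.00114). Of the 23 other genes on the study's signal transduction list, 5 to 8 rose and 14 to 18 fell in each stress (10.5 to 13.1% of all genes rose). The list holds genes that the study called on these same samples, and leaving out the members takes away genes that rose. The split was therefore largely set by the choice of genes, and nothing is read from it.

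Inositol-3-phosphate synthase makes the precursor of myo-inositol, which feeds phosphoinositides and protective sugars. LOC105048608 had 20463, 16895 and 12892 normalized counts in heat leaves, 5409.7, 6326 and 5996 in cold, 16286, 21149.7 and 25277 in drought, 19625, 14799 and 13485 in salinity and 11191, 16811 and 16978 in waterlogging leaves, against 1169.7, 2314 and 1931 in control leaves. Heat, drought, salinity and waterlogging libraries overlapped one another, while cold libraries lay between these and control. Cold was below drought by −1.83 (SE 0.26, adjusted p = 2.75e-05), and heat and drought differed by −0.32 (SE 0.25, adjusted p = 0.331). For LOC105036034, the other member annotated to inositol biosynthesis, the ratios of stress to control mean were 3.37 under heat, 2.03 under cold, 2.03 under drought, 2.30 under salinity and 2.75 under waterlogging. Of the 2 members annotated to cysteine biosynthesis, LOC105033933 had 85.4, 44.2 and 36.9 in cold and 346, 166 and 172 in waterlogging leaves, against 7.63, 22.4 and 21.3 in control leaves, and cold was below waterlogging by −2.03 (SE 0.43, adjusted p = 0.000998). Its counts were low and its control libraries differed among themselves by more than 2-fold, whereas LOC105032793 had more even ratios of stress to control mean, 3.25 under heat, 3.14 under cold, 2.19 under drought, 2.77 under salinity and 2.36 under waterlogging. LOC105043314, annotated to carotenoid biosynthesis, separated the treatments by kind. LOC105043314 had 945, 1107 and 1535 normalized counts in heat leaves, 968, 935 and 921 in cold, 3620.4, 5863 and 5199 in drought, 5838, 2571 and 3150.2 in salinity and 3634, 3591 and 2736 in waterlogging leaves, against 295, 413 and 498 in control leaves. Heat and cold libraries all lay below the lowest drought, salinity and waterlogging library, and cold was below drought by −2.39 (SE 0.29, adjusted p = 6.5e-06). The other carotenoid member, LOC105056650, had ratios of 2.21 under heat, 2.45 under cold, 2.53 under drought, 2.54 under salinity and 3.03 under waterlogging and was called in no pair.

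The 3 members annotated to lipid metabolism were all lowest in cold, under both scalings. By size factors cold was lowest for 31.9% of all genes past the control minimum, so no preference is read from 3 genes. LOC105034279 had 1453, 2857 and 1774 normalized counts in heat leaves, 499, 258 and 276 in cold, 3718, 3447 and 4789.8 in drought, 4899, 2110.3 and 2853 in salinity and 2846, 2702 and 2919.8 in waterlogging leaves, against 67.7, 79.0 and 111 in control leaves. Cold was below salinity by −3.25 (SE 0.34, adjusted p = 2.03e-06), and no cold library reached any library of another stress. LOC105038559, annotated to oxylipin and fatty acid biosynthesis, had 899, 921 and 836 in cold and 2931, 2557 and 2774 in salinity leaves, against 334, 353 and 357 in control leaves. LOC105044596 had 2612, 3243 and 3012 in heat, 1461, 1499.8 and 1463 in cold and 7736, 7874 and 8414 in drought leaves, against 697, 808 and 696 in control leaves. In each of the 3 genes cold was called below drought, below salinity and below waterlogging and heat above cold (14.2, 13.3, 13.6 and 12.3% of all genes). Plain library totals kept these calls in 2, 3, 2 and 1 of the 3 genes in the same order.

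Symporter LOC105055581 had the fourth largest ratio of all members. LOC105055581 had 119, 116 and 101 normalized counts in heat leaves, 127, 239 and 99.1 in cold, 200.4, 242 and 138 in drought, 216, 199 and 580.1 in salinity and 438, 274 and 491 in waterlogging leaves, against 11.4, 17.6 and 12.6 in control leaves. Its heat libraries were the most alike, and heat was below waterlogging by −1.82 (SE 0.40, adjusted p = 0.0023). Among the other transport members, LOC105043625 had ratios of stress to control mean of 2.93 under heat, 6.54 under cold, 4.26 under drought, 6.0 under salinity and 6.75 under waterlogging, with heat lowest. LOC105036018 had 4.88 under heat, 2.17 under cold, 2.25 under drought, 2.58 under salinity and 2.11 under waterlogging, with heat highest. The 4 glycosyltransferases, which attach sugars to small molecules, had their medians close together, with log2 fold changes against control of 2.23 under heat, 2.35 under cold, 2.14 under drought, 2.05 under salinity and 2.05 under waterlogging. At least 1 pair of stresses was called for 3 of the 4, where this held for 62.4% of all members and 48% of all genes. LOC105061084 was lower in cold than in salinity by −1.34 (SE 0.35, adjusted p = 0.00479), LOC105032597 was higher in cold than in salinity by 1.02 (SE 0.23, adjusted p = 0.00167), and LOC105047155 was higher in cold than in waterlogging by 1.02 (SE 0.17, adjusted p = 0.000152). The first difference was −0.71 (adjusted p = 0.0892) by plain library totals. The second fell short of 2-fold without the first cold (0.88) or the second salinity library (0.98), and the third without the first cold (0.97), the first waterlogging (0.91) or the second waterlogging library (0.96). LOC105036392, annotated to heme binding, had 790.3, 674 and 782 in heat, 909, 1219.8 and 913 in cold, 765, 800.0 and 606 in drought, 763, 661 and 727 in salinity and 658, 724 and 825 in waterlogging leaves, against 205, 215 and 196 in control leaves, and cold exceeded drought by 0.47 (SE 0.13, adjusted p = 0.00671), less than 2-fold. With plain library totals that difference reached 1.04.

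Between stresses, 4.40 to 35.6% of the members were called, depending on the pair. The rule favoured no stress over another, but its floor under every stress library shapes these counts. A call needs an adjusted p under 0.05 over all 23830 genes and at least a 2-fold difference. Between heat and cold 65 members were called (26.0%, against 22.1% of all genes), 45 higher and 20 lower in heat (12.3 and 9.79% of all genes). Between heat and drought 74 were called (29.6%, against 16.5%), 29 higher and 45 lower in heat (8.18 and 8.29% of all genes). Between heat and salinity 65 were called (26.0%, against 14.1%), 32 higher and 33 lower in heat (6.57 and 7.56% of all genes). Between heat and waterlogging 73 were called (29.2%, against 16%), 37 higher and 36 lower in heat (7.9 and 8.13% of all genes). Between cold and drought 89 were called (35.6%, against 26.9%), between cold and salinity 74 (29.6%, against 23.3%) and between cold and waterlogging 74 (29.6%, against 24.8%). The pairs without a temperature treatment were closest, with 27 members between drought and salinity (10.8%, against 2.77%), 47 between drought and waterlogging (18.8%, against 7.02%) and 11 between salinity and waterlogging (4.40%, against 0.621%). Whether these shares differ from the background beyond the choice of members was not tested. At least 1 of the 10 pairs was called for 156 members (62.4%, against 48% of all genes) and no pair for 94 (37.6%, against 52.0% of all genes).

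**Figure D3:**
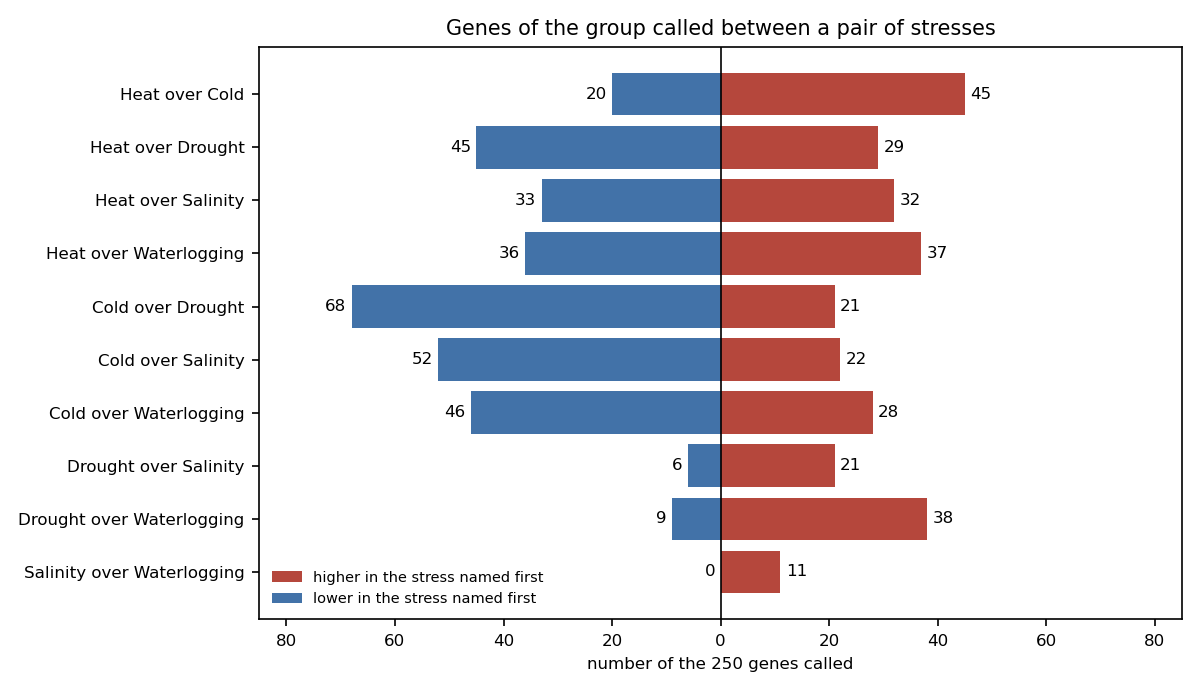
Number of the 250 members called in each of the 10 pairs of stresses; bars to the right count members higher and bars to the left members lower in the stress named first. Scaled by TMM, cold was the lower of the pair for 68, 52 and 46 members against drought, salinity and waterlogging (14.2, 13.3 and 13.6% of all genes). It was the higher for 21, 22 and 28. With plain library totals cold was the lower for 40, 26 and 18 members and the higher for 54, 58 and 71. By edgeR no member was called lower in salinity than in waterlogging (0.256% of all genes).

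The direction of the calls in pairs with cold rested on the scaling of the libraries. Scaled by TMM, 68 members were lower and 21 higher in cold than in drought (14.2 and 12.8% of all genes), 52 lower and 22 higher than in salinity (13.3 and 10%), and 46 lower and 28 higher than in waterlogging (13.6 and 11.2%). Scaled by plain library totals, 40 were lower and 54 higher in cold than in drought, 26 lower and 58 higher than in salinity, and 18 lower and 71 higher than in waterlogging. Between heat and cold, 45 higher and 20 lower became 33 higher and 51 lower, and between heat and waterlogging 37 higher and 36 lower became 43 higher and 19 lower. Plain totals set the median of all genes at a log2 fold change from control of −0.14 under heat, 0.31 under cold, −0.33 under drought, −0.36 under salinity and −0.46 under waterlogging. The calls between drought, salinity and waterlogging split in the same direction under both scalings. Drought was above waterlogging for 38 members and below it for 9 (3.44 and 3.58% of all genes). Drought was above salinity for 21 and below it for 6 (1.14 and 1.64% of all genes), with 13 above without the second salinity library, 2 below without the first drought library and 3 below without the first salinity library. Salinity was above waterlogging for 11 members (0.365% of all genes), against 6 without the third salinity library and 1 in a fit of these 6 libraries alone. No member was called below waterlogging in salinity by edgeR (0.256% of all genes). At an unadjusted p under 0.05 and at least a 2-fold difference there was 1, and DESeq2 called 1.

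Called above each of the other 4 stresses were 20 members in heat (2.31% of all genes), 8 in cold (3.57%) and 3 in drought (0.319%). The number in cold was 22 with plain library totals. In salinity (0.0042% of all genes) and in waterlogging (0.105%) there was no such member by edgeR. At an unadjusted p under 0.05 and at least 2-fold there were 0 in salinity and 1 in waterlogging. DESeq2 gave 0 in salinity and 1 in waterlogging. Of the 20 in heat, 4 are annotated, LOC105042708, LOC105042707, LOC105060161 and LOC105046587. The 16 without a term include LOC105041260, with 53483, 50537 and 47453 normalized counts in heat, 428, 356 and 176 in cold, 4631, 5567 and 5695 in drought, 1028, 1640.0 and 1889 in salinity and 129, 372 and 383 in waterlogging leaves, against 40.0, 39.0 and 30.1 in control leaves. In this gene all groups were apart except cold and waterlogging, which overlapped. Its log2 differences were 3.25 (SE 0.38, adjusted p = 1.06e-05) for heat over drought, −4.06 (SE 0.39, adjusted p = 6.66e-07) for cold over drought, 4.18 (SE 0.40, adjusted p = 1.17e-05) for drought over waterlogging and 2.36 (SE 0.37, adjusted p = 0.00647) for salinity over waterlogging, the last lost in a fit of the pair alone (adjusted p = 0.174). The order heat, drought, salinity was shared by LOC105056959, another member without a term, with 60747, 59480.3 and 57235 in heat, 9420.0, 9601 and 9345 in drought and 3901, 3301 and 4514 in salinity leaves, against 98.2, 90.7 and 86.4 in control leaves.

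Called below each of the other 4 stresses were 12 members in cold (5.20% of all genes), 1 in heat (1.08%) and 1 in drought (0.298%). In salinity (0% of all genes) and in waterlogging (0.0671%) there was none by edgeR. At an unadjusted p under 0.05 and at least 2-fold there were 0 in salinity and 1 in waterlogging, and likewise 0 and 1 by DESeq2. Without the first cold library the number in cold was 20, and with plain library totals it was 4. Of the 12, 8 are annotated, the phosphatase LOC105044577, the inositol gene LOC105048608, the DNA-binding members LOC105041017 and LOC105040116, the antenna gene LOC105032994 and the 3 lipid members. Among the 4 without a term, LOC105043204 had 10695, 9978 and 10923 in heat, 4983, 3839 and 4144 in cold and 19467, 23931 and 18772 in drought leaves, against 1515, 1505 and 1691 in control leaves, and cold was below drought by −2.27 (SE 0.19, adjusted p = 1.95e-07). Cold stood highest in LOC105054706. LOC105054706 had 145, 175 and 185 normalized counts in heat leaves, 945, 877 and 1181 in cold, 91.8, 134 and 92.9 in drought, 82.6, 105 and 114 in salinity and 119, 143 and 137 in waterlogging leaves, against 36.2, 51.7 and 34.9 in control leaves. Only the cold libraries passed 200 normalized counts. Cold was above drought by 3.23 (SE 0.19, adjusted p = 1e-08), above salinity by 3.32 (SE 0.19, adjusted p = 1.52e-08) and above waterlogging by 2.91 (SE 0.19, adjusted p = 2.51e-08). LOC105056603 was likewise higher in cold, 1326, 2266 and 1533, than in heat, 290.1, 286 and 284, with 78.2, 127 and 64.0 in control leaves and a log2 difference of heat over cold of −2.56 (SE 0.23, adjusted p = 4.31e-07).

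Drought set 4 members apart from all other stresses. The added gene model Novel00105 had 26834, 47054 and 51982 normalized counts in drought leaves and 13828, 18944 and 11716 in waterlogging leaves, against 431, 763 and 646 in control leaves. LOC105041448, with 427, 229 and 231 in drought and 26.7, 8.78 and 19.4 in control leaves, and LOC105040787, with 17585, 21785 and 19409.6 in drought and 1468, 1427 and 1923 in control leaves, were the others highest in drought, and without the second drought, the second salinity or the third salinity library 1 member was so called in place of 3. LOC105035002, the member with the third largest ratio, was lowest in drought. LOC105035002 had 2791, 2307 and 1463 normalized counts in heat leaves, 3212, 3301 and 4009 in cold, 346, 568 and 521 in drought, 1659, 1085 and 1287 in salinity and 1836, 1497 and 642 in waterlogging leaves, against 15.3, 24.4 and 28.1 in control leaves. Cold was above drought by 2.87 (SE 0.34, adjusted p = 5.09e-06), and drought below salinity by −1.47 (SE 0.33, adjusted p = 0.0125), a call lost without the first drought library (adjusted p = 0.0729) or the first salinity library (adjusted p = 0.0501). LOC105051040 also was low in drought, with 243, 185 and 209 in drought, 786, 1058 and 1529 in salinity and 1960.1, 1635 and 1448 in waterlogging leaves, against 39.1, 44.9 and 14.6 in control leaves, and log2 differences of −2.38 (SE 0.44, adjusted p = 0.00434) from salinity and −2.97 (SE 0.45, adjusted p = 0.000368) from waterlogging. LOC105050621, annotated to a biosynthetic process, had 199, 272 and 196 in drought and 1119, 862 and 1231 in waterlogging leaves, against 76.3, 83.9 and 90.2 in control leaves, a difference of −2.26 (SE 0.28, adjusted p = 8.57e-05).

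Heat gave the lowest stress mean in several members of large ratio, without a call against the next lowest stress in those given here. Its log2 difference from cold was −0.95 (SE 0.42, adjusted p = 0.0740) in LOC105035641 and −0.07 (SE 0.22, adjusted p = 0.820) in LOC105058052. From drought it was −0.21 (SE 0.20, adjusted p = 0.421) in LOC105040206. LOC105035641, with no term, had 143, 201 and 201 in heat, 1884, 833 and 977 in drought and 823, 1064 and 1197 in salinity leaves, against 26.7, 14.6 and 25.2 in control leaves. Its heat libraries lay below every drought and salinity library, by −2.76 (SE 0.44, adjusted p = 0.000169) against drought and −2.48 (SE 0.44, adjusted p = 0.000453) against salinity. LOC105058052 had 376, 682 and 671 in heat and 3345, 2643 and 2351 in waterlogging leaves, against 109, 146 and 157 in control leaves, with heat below waterlogging by −2.26 (SE 0.23, adjusted p = 3.29e-06). LOC105040206, with the second largest ratio, was raised more evenly, with ratios of stress to control mean of 24.2 under heat, 55.4 under cold, 28.1 under drought, 33.3 under salinity and 39.1 under waterlogging. In this gene heat was below cold by −1.18 (SE 0.20, adjusted p = 0.000195), which fell short of 2-fold without the second cold library (−0.93).

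The stress with the highest mean was heat for 47 members, cold for 50, drought for 66, salinity for 25 and waterlogging for 62. As shares these are 18.8, 20.0, 26.4, 10.0 and 24.8%, where the same shares over all genes past the control minimum were 21.0, 31.4, 18.6, 10.6 and 18.4%. With plain library totals cold was highest for 115 members, waterlogging for 25 and salinity for 15, and without the first salinity library salinity was highest for 14. By size factors, the lowest mean was in cold for 85 members (33 by plain library totals) and in heat for 64. It was in drought for 43, in waterlogging for 39 and in salinity for 19. In that order these are 34, 25.6, 17.2, 15.6 and 7.6% of the members. Over all genes past the control minimum the shares were 31.9, 21.9, 19.4, 14.8 and 12.1%. The 5 fitted log2 fold changes of a member spanned 1.24 in the median, less than 1 for 93 members and more than 3 for 19.

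**Figure D4:**
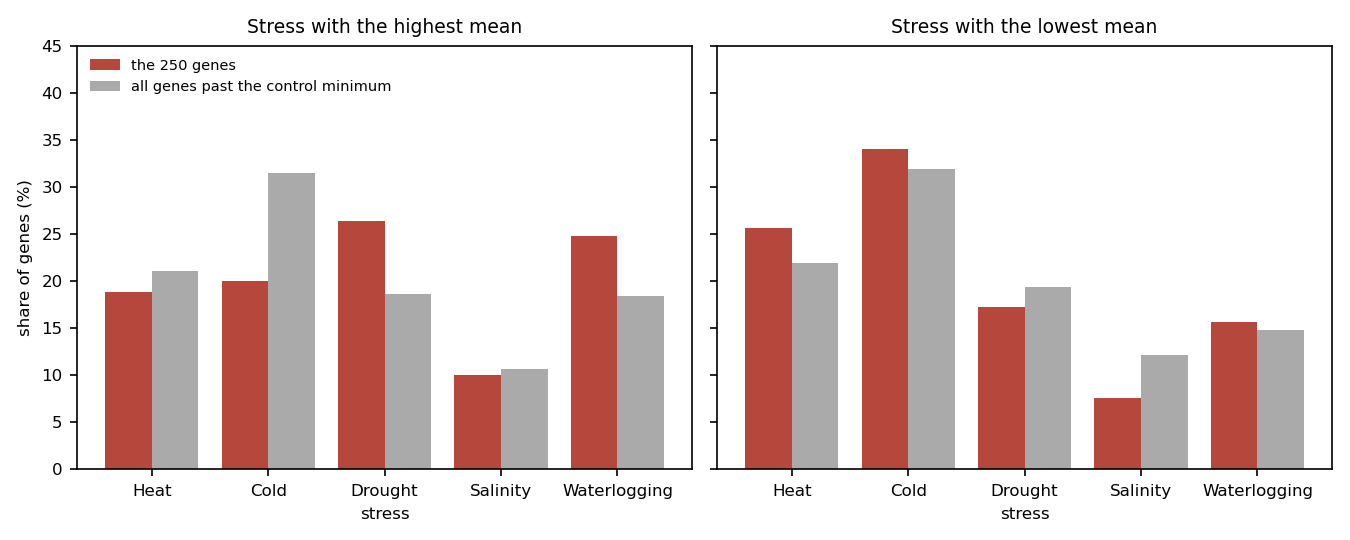
Share of genes (%) whose highest (left panel) or lowest (right panel) stress mean was in each stress, for the 250 members (red) and for all 22005 genes past the control minimum (grey), with counts scaled by size factors. Drought and waterlogging were the highest stress for 26.4 and 24.8% of members, against 18.6 and 18.4% of all genes, and cold for 20.0%, against 31.4%.

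The most even member was LOC105041172, with log2 fold changes against control of 0.98 under heat, 1.00 under cold, 0.93 under drought, 0.90 under salinity and 0.80 under waterlogging. LOC105044400 followed, with 1.42, 1.44, 1.28, 1.27 and 1.22 log2 fold change in the same order of stresses, then LOC105045844, LOC105032661 and LOC105042688, all with a span of at most 0.27. None of these 5 carries a term in the study's tables. LOC105042708 had the widest span, 10.7 log2 units between heat and waterlogging.

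The neighbours LOC105042708 and LOC105042707 had overlapping normalized counts in heat and differed in their control values, as given above. Their fitted log2 fold changes of heat over control were 12.89 and 9.15. LOC105049770 had 893, 961 and 768 normalized counts in heat, 550.1, 578 and 591 in cold, 598, 479.8 and 588 in drought, 704, 647 and 555 in salinity and 1041, 911 and 593 in waterlogging leaves, against 202, 214 and 180.5 in control leaves. Beside it, LOC105049771 had 435, 403 and 372 in heat, 341, 321 and 360.4 in cold, 420.5, 389 and 469 in drought, 465, 397 and 379.9 in salinity and 621, 513 and 301 in waterlogging leaves, against 134, 105 and 145 in control leaves. The pair LOC105041398 and LOC105041412 both had their highest mean in cold, with 101, 137 and 138 and with 146, 180.0 and 171 in cold leaves, against 27.6, 21.5 and 15.5 and 29.6, 16.6 and 22.3 in control leaves. Whether reads are shared within these pairs could not be checked here. Of the annotated members outside the sets above, LOC105032039, annotated to the pentose phosphate pathway, had 533, 614 and 473 in heat and 1062, 850.1 and 558 in waterlogging leaves, against 194, 223 and 220.2 in control leaves, and LOC105058702, annotated to carbon fixation, had 308, 301 and 250.4 in cold and 695, 549.7 and 663 in drought leaves, against 70.5, 73.1 and 91.2 in control leaves.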

How the data were processed

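RNA-seq counts and FPKM values of oil palm leaves were taken as deposited. By the methods of the study, the authors trimmed 150-nt paired reads (HiSeq 2000, NEBNext Ultra libraries), mapped them with TopHat2 allowing 2 mismatches to the published oil palm genome and counted reads per gene with HTSeq. The counts deposited by the authors are whole reads per gene, not normalized. The FPKM values deposited by the authors are these counts per gene length and library total. Which version of the assembly was used and whether counting used strand could not be learned from the labels, the methods or the headers, and reads that fall on overlapping or near-identical genes are uncertain for that reason. Tables of 6 groups were joined by gene, giving 29750 numbered genes and 856 gene models added by the study. Columns of the authors' comparisons were not used.

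Size factors were medians of ratios over the 22747 genes with no zero count. Direct differences between stresses were tested with edgeR 4.0.16 (quasi-likelihood test, TMM scaling, filterByExpr with a minimum count of 10) in 1 fit of all 18 libraries with 1 coefficient per group and 12 residual degrees of freedom, under R 4.3.3. All 250 members passed the filter, as members needed at least 10 control counts. P-values were adjusted by Benjamini-Hochberg over 23830 genes within each of 10 contrasts, and a call needed an adjusted p under 0.05 and at least a 2-fold change. SE is the log2 difference divided by the root of the F statistic. Limma 3.58.1 and DESeq2 1.42.0 served as alternatives, and the edgeR step was tested on simulated data.

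The members and the lists were chosen with earlier results of these data known. Named were members that the study's text and tables describe, the largest ratios, the members nearest the limit, the extremes of control mean, the most even members, the largest changes of each pair and the highest members of each list by role, not all of them printed, and beside these members picked for illustration after their values were seen. Gene Ontology lists came from the study's enrichment tables, without the molecular function rows for salinity. Replicates are biological replicates by the labels, each from its own seedlings. Over all genes together, the spread between replicates exceeded counting error (chi-square per degree of freedom 16.1 to 90.9). This was not computed for single members. Values under about 50 counts are the least precise. Promoter, transcript and protein sequences were not used here.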

Additional observations from a re-analysis of the deposited data

Results flagged for a closer look

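The members named here differed between the effects of a pair of stresses, both taken against the same control libraries, by a direct test of that difference (edgeR, adjusted p under 0.05 and at least 2-fold). Values in parentheses are log2 differences, and a positive one is higher in the stress named first. For heat over cold these were LOC105042708 (9.15), LOC105056603 (−2.56), LOC105042707 (5.63), LOC105060161 (1.40), LOC105040116 (1.53), LOC105038428 (1.74) and LOC105040206 (−1.18). For heat over drought these were LOC105042708 (6.60), LOC105035641 (−2.76), LOC105042707 (4.47), LOC105041260 (3.25), LOC105044577 (−1.28), LOC105039486 (−1.99) and LOC105043487 (−1.51). For heat over salinity these were LOC105042708 (9.18) and LOC105035641 (−2.48). For heat over waterlogging these were LOC105042708 (10.71), LOC105058052 (−2.26), LOC105049085 (−1.95) and LOC105055581 (−1.82). For cold over drought these were LOC105054706 (3.23), LOC105041260 (−4.06), LOC105048608 (−1.83), LOC105041017 (−1.83), LOC105044577 (−2.88), LOC105039486 (−2.29), LOC105039334 (−2.12), LOC105057189 (1.22), LOC105035002 (2.87), LOC105043204 (−2.27) and LOC105043314 (−2.39). For cold over salinity these were LOC105054706 (3.32), LOC105034279 (−3.25), LOC105044947 (−1.38), LOC105061084 (−1.34) and LOC105032597 (1.02). For cold over waterlogging these were LOC105054706 (2.91), LOC105032994 (−3.20), LOC105047312 (−2.52), LOC105049085 (−2.49), LOC105033933 (−2.03) and LOC105047155 (1.02). For drought over salinity these were LOC105042708 (2.58), LOC105051040 (−2.38) and LOC105035002 (−1.47). For drought over waterlogging these were LOC105041260 (4.18), LOC105051040 (−2.97), LOC105037120 (1.76), LOC105043487 (1.54), LOC105047312 (−1.75), LOC105047945 (2.13) and LOC105050621 (−2.26). For salinity over waterlogging it was LOC105041260 (2.36). Several of these were picked as the largest change of a pair. No group held 4 or more libraries, so no library was tested as standing apart within its group.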

How the results depend on the processing

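Of 60 direct differences named by gene, 48 stayed on their side of the threshold under RLE scaling, plain library totals, no filter, DESeq2, a separate fit of the pair, the replicate block and each left-out library, and none reversed. The others are those given with their exceptions in the report. A ratio of at least 2 in place of 1.5 left 95 genes of 298. Plain library totals, under which 239 genes met the ratio and 178 of them were members, gave median log2 fold changes of 1.80 under heat, 2.13 under cold, 1.81 under drought, 1.77 under salinity and 1.66 under waterlogging. Limma-trend on log2(FPKM + 1) gave 1.51 under heat, 1.85 under cold, 1.55 under drought, 1.46 under salinity and 1.41 under waterlogging, and on log2(FPKM + 0.1) 1.78, 2.11, 1.79, 1.73 and 1.64 for heat, cold, drought, salinity and waterlogging. With plain library totals the highest mean was in cold for 115 members, waterlogging for 25 and salinity for 15, and the calls were 51 lower for heat over cold, 19 lower for heat over waterlogging, 54 higher and 40 lower for cold over drought, 58 higher and 26 lower for cold over salinity, and 71 higher and 18 lower for cold over waterlogging, with 22 members above and 4 below all other stresses in cold.

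With an adjusted p alone and no minimum fold, more members were called by construction, namely 77 higher and 55 lower for heat over cold, 53 and 71 for heat over drought, 50 and 67 for heat over salinity, 78 lower for heat over waterlogging, 52 higher for cold over drought, 52 and 87 for cold over salinity, 56 and 91 for cold over waterlogging, 35 and 13 for drought over salinity, 58 and 42 for drought over waterlogging and 1 lower for salinity over waterlogging. The same rule gave 20 members above and 30 below all other stresses in cold and 9 above in drought, and 22 called in no pair. A separate fit of the pair gave 1 member higher in salinity than in waterlogging and 1 above all other stresses in drought, and DESeq2 1 lower in salinity than in waterlogging. The cause of these shifts was not tested.

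Over the fits that left out 1 library each, the medians ran from 1.77 to 1.91 under cold and from 2.08 to 2.17 under drought, and the genes meeting the ratio numbered 298 to 431. Salinity was the highest stress for 14 to 33 members, drought was above salinity for 13 to 24 and below it for 2 to 6, salinity was above waterlogging for 6 to 15 and below it for 0 to 1, drought was above all other stresses for 1 to 4 and cold below all others for 10 to 20.

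Replicate numbers are shared between the groups without a stated batch, and samples with the same number did not deviate together (correlations −0.28 to 0.26, over 0.1 in 12 of 45 pairs, and 6 of 18 libraries nearest to their own number). With the number as a replicate block, 45 members were higher and 22 lower in heat than in cold, 21 higher and 69 lower in cold than in drought, and 10 higher and 0 lower in salinity than in waterlogging, and 94 were called in no pair. The block moved no count of calls by over 1.5 times and changed none of the 60 differences named. Depth limits mainly members with few control reads, such as LOC105049085, whose control values of 2.93 to 20.4 leave its fold uncertain.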
